A study of Arabidopsis thaliana with 9 samples.

Results

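Seedlings of the Arabidopsis thaliana line iae1 were compared with those of the line B1798 by gene expression, each line being measured on 3 Affymetrix ATH1 arrays. The comparison covers all probe sets, apart from the AFFX controls, whose signal reached the 40th percentile of the array in 3 or more of the 6 arrays, which held for 13893 of 22746. The series also holds 3 arrays of a second line, iae2, which entered the fit for its estimate of the spread and gave the test of what was particular to iae1. Per the labels, plants of all 3 lines were of the Ler ecotype, were given 1% sucrose, and were harvested at growth stage 1.0 as crown, hypocotyl, cotyledons and apical meristem bud. No label gives an allele, a transgene or a treatment for any of the lines and none names a control, so B1798, the one line whose name has no iae, served as the reference here. The series text mentions pooling of 30 plants but not what each pool became, so the values are averages over tissues of many seedlings, and fewer cells of a type cannot be told apart from less RNA per cell. Arrays of a line carry replicate numbers, and no label says whether these stand for separately grown plants, so the p-values rest on a spread that may be technical.

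The name iae stands, in earlier work on Arabidopsis, for increased excision of Ac, a transposon from maize, and the series title asks for the genetic basis of the lines' phenotypes. Seedlings of this age draw on stored oil through the glyoxylate cycle until photosynthesis in the cotyledons takes over. They also make defence peptides, glucosinolates, coumarins and other specialised compounds, whose genes respond to the hormones jasmonate, ethylene and salicylate. Plastids carry a small genome of their own for parts of the photosynthetic complexes and of the plastid ribosome, while most plastid proteins are encoded in the nucleus.

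All values below are deposited signals on a linear scale, brought by the submitters to the same trimmed mean of 100 on each array. Array medians lay between 35.9 and 38.5. Across probe sets, arrays of the same line correlated at an r of 0.9835 to 0.989 and arrays of iae1 with those of B1798 at 0.976 to 0.9812. The GAPDH 3'/5' ratio, a sign of RNA integrity, was 2.42 ± 0.0875 (SD, n = 3) in iae1 and 2.73 ± 0.422 in B1798 (two-sided exact permutation p = 0.4). The actin 3'/5' ratio was lower in iae1 as well, at 2.3 ± 0.154 against 2.64 ± 0.175 in B1798 (exact permutation p = 0.2). The 25S rRNA probe set gave 4850 ± 384 in iae1 and 3620 ± 416 in B1798, without overlap, with an exact permutation p of 0.1, the smallest that 3 arrays against 3 can give. Of the fixed markers of the labelled tissues, the photosynthesis genes RCA and LHCB4.2 were strongly expressed in every array, and their summed signal was 4015 to 4651 in iae1 and 4280 to 4599 in B1798. Of the apical meristem markers, LAS, a regulator of axillary meristems, was near the filter level at 36.5 in iae1 and 33.0 in B1798. CLV3, a stem cell signal, was under it at 5.87 and 3.3. The root marker PYK10, which is also high in hypocotyls and cotyledons, was at 3980 in iae1 and 4220 in B1798. The summed signal of the 3 measured root markers was 3972 to 4209 in iae1 and 4008 to 4471 in B1798, and for the seed and flower markers the annotation used names no single-gene probe set, so they were not analysed here.

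Many genes differed between iae1 and B1798, and most differences were small. A probe set was called where limma gave a Benjamini-Hochberg adjusted p below 0.05 over all 13893 tested. This held for 1038 probe sets, or 7.47% of those tested, with 543 higher in iae1 (3.91%) and 495 lower (3.56%). The median size of a called change was 0.45 on the log2(value + 16) scale, the scale of every log2 fold change given here, and 639 of the called changes were under 0.5. Only 63 probe sets, 43 higher and 20 lower, were called at a change of 2-fold or more, which is 0.453% of those tested. The number of calls fell to 616 without B1798 replicate 2, to 654 without iae1 replicate 3 and to 684 without iae1 replicate 2. It was 669 when the fit also held the GAPDH ratio.

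The probe annotation gave a single gene for 498 of the called probe sets and none here for 514. Taken as 1 probe set per gene, 498 of 7478 tested genes were called (6.66%), 261 higher in iae1 (3.49%) and 237 lower (3.17%), with a median log2 fold change of 0.02 over all tested genes. Among the nuclear chromosomes the share of genes called ran from 5.74% on chromosome 5 to 7.25% on chromosome 4. Calls were more frequent among bright genes: with the genes ranked by signal and cut into 4 equal groups, 12.0% were called in the brightest group and 2.94% in the dimmest, where the median size of a call was 0.62 against 0.38. The plot of fold change against signal shows this shape.

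**Figure D1:**
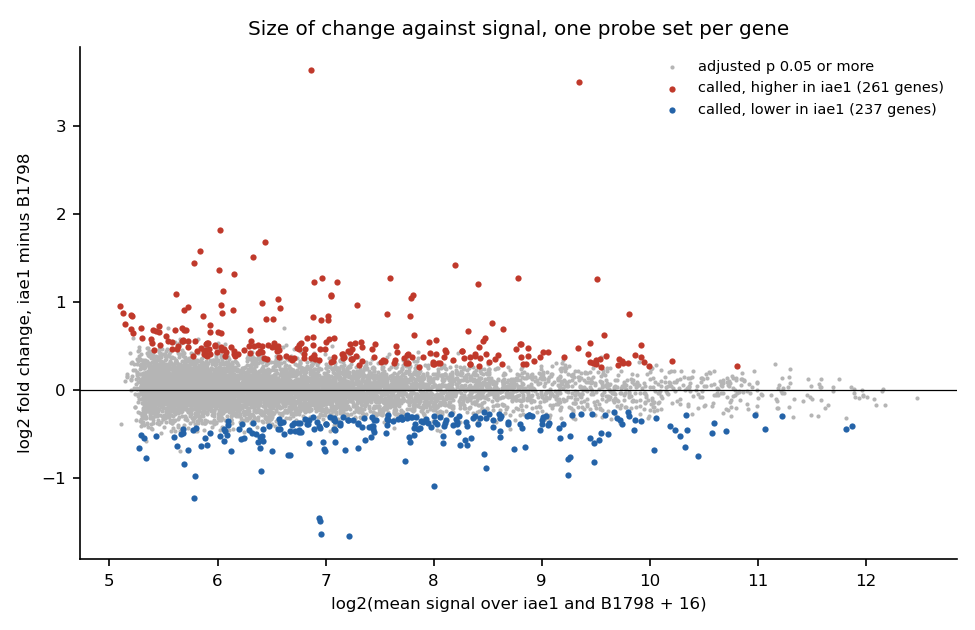
Log2 fold change of iae1 against B1798 (y axis) against the log2 mean signal of both lines plus 16 (x axis) for 7478 genes, each point a gene, with called genes in red (261 higher in iae1) and blue (237 lower). Most called genes lie within 1 log2 unit of no change, and AT5G28110 and AT2G35750 stand apart at log2 fold changes of 3.63 and 3.50.

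The steepest rises were those of AT5G28110, a pseudogene near silent in the other lines, and of AT2G35750, which was expressed in all of them. AT5G28110 gave signals of 165.9, 234.5 and 199.9 in iae1 against 1.5, 1.3 and 1.1 in B1798 and 3.1, 0.7 and 1.4 in iae2. Its log2 fold change was 3.63 ± 0.14 (SE, adjusted p = 2.18e-10), and because B1798 was far under the filter level of 23.2 to 26.0 the size ran from 2.01 to 5.25 over the other settings tried. With a pseudocount of 64 it was 2.01 against 3.01 for AT2G35750, so the order of these genes turned. The probe set is of a kind that can cross-hybridise with related sequences. A second pseudogene, AT2G26630, gave 72.0, 99.8 and 84.4 in iae1 against 11.9, 15.6 and 10.7 in B1798 (log2 fold change 1.81 ± 0.14, adjusted p = 7.72e-07). Both passed the filter on low signal through their iae1 arrays, so their direction was fixed by that filter. In all, 2 of 64 tested pseudogenes (3.12%) and 3 of 12 transcribed pseudogenes were called, against 6.66% of all genes. The 3 were AT1G33660, AT1G35513 and AT1G80800, higher in iae1 at log2 fold changes of 0.55, 0.45 and 0.44. AT1G35513, at 20.0 ± 2.39 in B1798, also passed the filter through its iae1 arrays alone, so its direction was fixed by that filter.

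AT2G35750, a locus with no gene name in the tables used, was already expressed in B1798 at 76.7, 80.7 and 115.0 and rose to 1205.5, 1230.1 and 1102.6 in iae1. The change was 3.50 ± 0.11 on the log2 scale (adjusted p = 3.99e-11). In iae2 it was at 78.1 ± 6.14, and the test of iae1 against iae2 gave a log2 difference of 3.67 (adjusted p = 6.54e-12). AT3G13610 encodes F6'H1, the feruloyl-CoA hydroxylase that starts the synthesis of the coumarin scopoletin, which roots release when iron is scarce. Its signals were 109.9, 100.7 and 136.4 in iae1 against 43.9, 14.8 and 20.6 in B1798, without overlap (log2 fold change 1.68 ± 0.19, adjusted p = 3.85e-05). The B1798 values 14.8 and 20.6 were under the filter level, and the log2 fold change ran from 1.0 to 2.23 over the settings tried. AT3G13610 was at 19.6 ± 2.69 in iae2, from which iae1 differed with an adjusted p of 3.96e-06.

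The other leading rises differed in their level in iae2. AT5G03090 was at 70.0 ± 14.8 in iae1, 12.7 ± 3.42 in B1798 and 10.6 ± 2.97 in iae2. Both tests put iae1 higher (adjusted p = 7.87e-06 and 1.28e-06). The locus passed the filter on low signal through its iae1 arrays alone, so its direction against B1798 was fixed by that filter. AT1G14960 was at 608 ± 43.3 in iae1 against 241 ± 7.97 in B1798 and 317 ± 14.9 in iae2, and AT3G29410 at 161 ± 14.96 against 57.0 ± 5.98 and 83.2 ± 20.0. For both, iae1 was above iae2 with adjusted p values of 5.75e-07 and 0.000212. In both, iae2 was between the other lines and above B1798 (adjusted p = 0.00284 and 0.03). AT4G39675 and AT3G25930 rose about as steeply, at log2 fold changes of 1.37 and 1.32. Here too iae2 was between the other lines, at 49.1 ± 8.34 and 63.5 ± 7.81, and iae1 was above it (adjusted p = 0.00471 and 0.0398). AT4G39675 also passed the filter on low signal through its iae1 arrays alone, so its direction against B1798 was fixed by that filter. The defensin gene PDF1.2b had 3 iae1 values of 294.3, 404.0 and 546.5 above its B1798 values of 115.3, 165.0 and 144.9. It did not differ from iae2 by the test (516 ± 111, adjusted p = 0.238), and its probe set can cross-hybridise with related defensins.

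BGLU28, a beta-glucosidase known to rise under sulfur shortage, fell furthest among the named genes. It gave 59.9, 53.5 and 51.7 in iae1 against 239.7, 225.5 and 163.8 in B1798, a log2 fold change of -1.65 ± 0.12 (adjusted p = 5.88e-07). In iae2 it was at 133 ± 10.95, above iae1 with an adjusted p of 1.1e-05. AT5G03350 gave 32.9, 50.5 and 51.1 in iae1 against 165.2, 167.1 and 181.3 in B1798 (-1.64 ± 0.14, adjusted p = 2.54e-06), and AT5G55450 gave 52.8, 59.0 and 37.2 against 160.9, 171.0 and 164.6 (-1.48 ± 0.13, adjusted p = 2.1e-06). Both loci carry no gene name in the tables used. For neither did iae1 differ from iae2 by the test, where they were at 47.03 ± 11.8 and 59.0 ± 8.85.

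A different order of the lines held for AT4G17470, which gave 79.5, 33.6 and 41.4 in iae1 against 156.1, 157.2 and 170.5 in B1798 and was at 193 ± 8.83 in iae2 (iae1 against iae2, adjusted p = 3.29e-06). AT1G75280 was at 395 ± 44.7 in iae1, 784 ± 48.3 in B1798 and 918 ± 82.6 in iae2. AT4G22490 was at 235 ± 16.1, 448 ± 30.1 and 574 ± 72.2, and AT1G64360 at 146 ± 24.6, 334 ± 96.7 and 461 ± 32.4. In these 4 loci iae1 was below both other lines by the tests. AT1G16020, whose listed synonym is CCZ1a, a subunit of the complex that activates the late-endosome GTPase Rab7, was at 22.2 ± 12.3 in iae1, 56.5 ± 4.53 in B1798 and 59.6 ± 4.80 in iae2. The remaining leading falls were AT1G19960 at a log2 fold change of -0.92, AT1G47570 at -0.84 and AT4G16260 at -0.82. The call of AT1G47570 was lost without B1798 replicate 3 (adjusted p = 0.0738) and in 2 other fits that left out an array. The plot of leading genes shows each array.

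**Figure D2:**
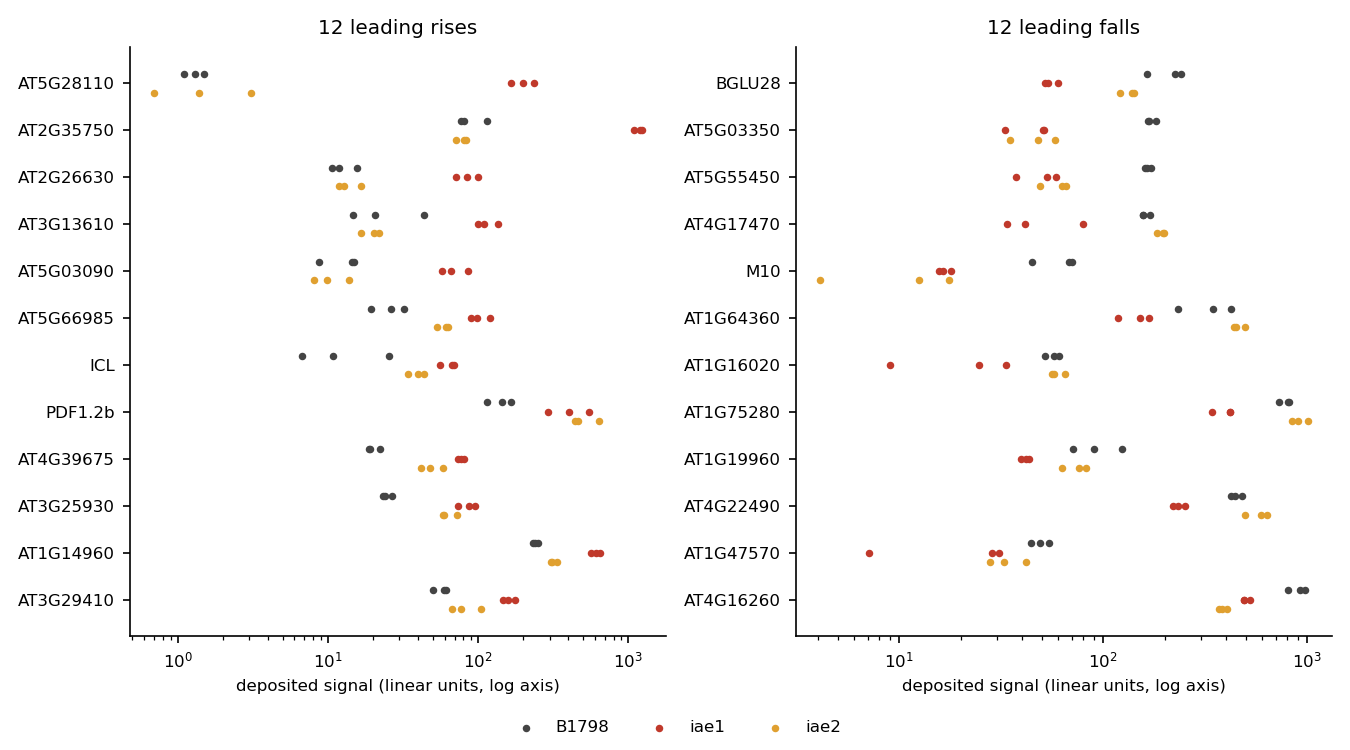
Deposited signal (x axis, log scale, linear units) on each array for the 12 leading rises and 12 leading falls of iae1 against B1798 (rows), with 3 points per line in dark grey for B1798, red for iae1 and orange for iae2. The iae1 points of every gene lie wholly to the right (rises) or left (falls) of the B1798 points, which the choice of these genes required, while the iae2 points lie with B1798, with iae1, between them or beyond them.

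To describe functions below these leading genes, 57 lists of genes were drawn from gene symbols and locus names. They held 1018 listed entries with a probe set that the annotation gives to that gene alone, and 685 genes of them passed the filter on low signal. Of these 685 genes 42 rose and 39 fell, or 11.8% against the 6.66% of all genes, and the median log2 fold change was 0.02 as over all genes. The lists favour named and often bright genes, and some were written for genes already known to change, so the share says nothing about a function by itself. By broad theme, calls were most frequent in the defence lists (7 of 28 genes, 3 higher and 4 lower), the stress lists (8 of 33, 4 higher and 4 lower), the redox lists (8 of 37, 2 higher and 6 lower) and specialised metabolism (17 of 87, 6 higher and 11 lower). They were least frequent in the lists of nuclear processes and protein turnover (7 of 156 genes, or 4.49%) and of transcription factors (3 of 57, or 5.26%). The plot of function lists gives all members of the longer lists.

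**Figure D3:**
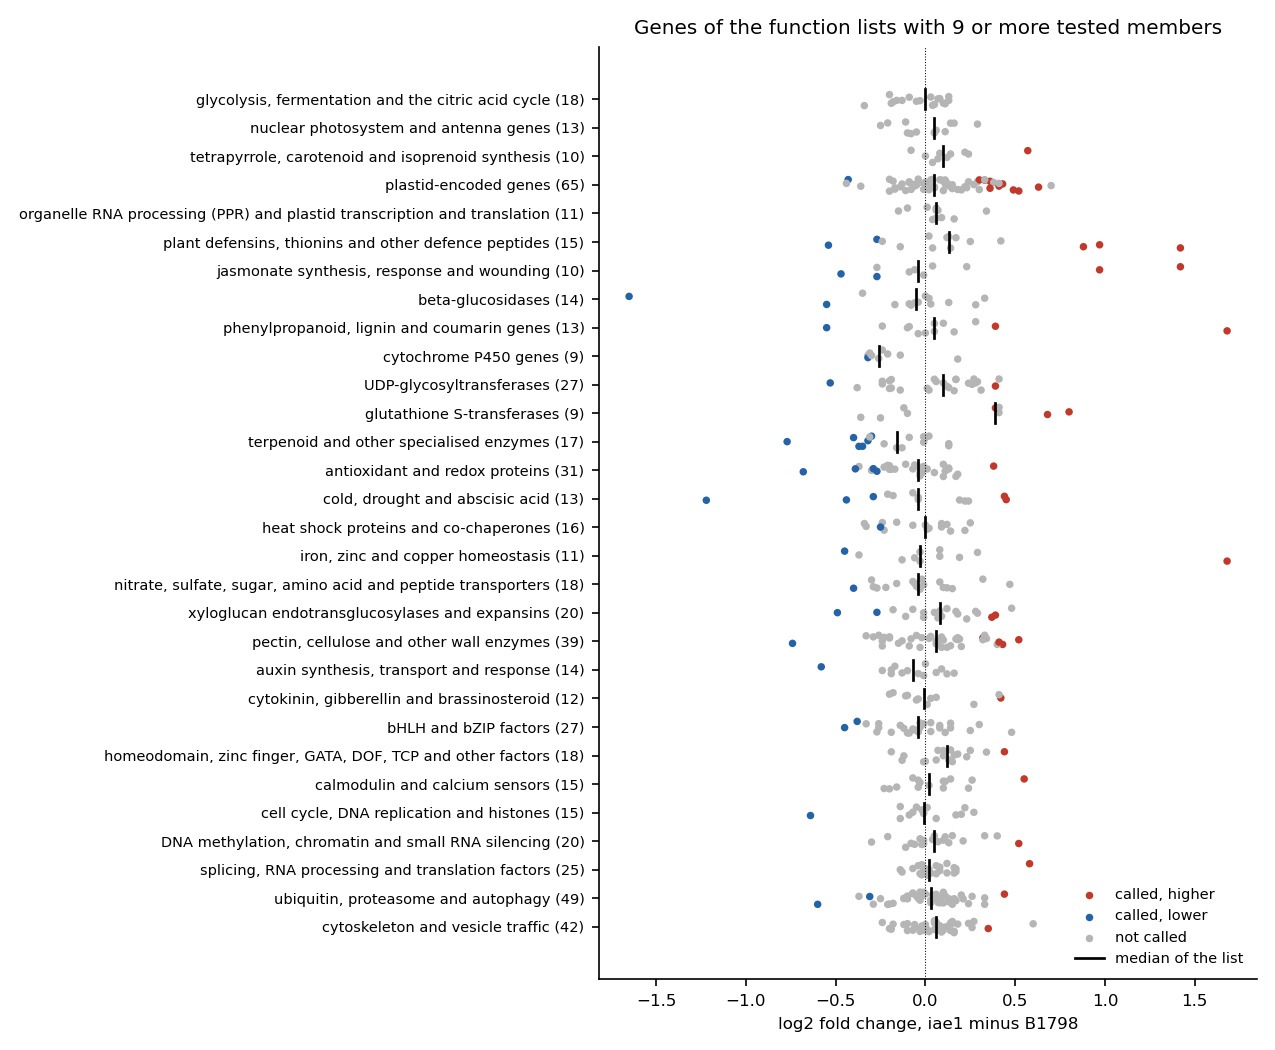
Log2 fold change of iae1 against B1798 (x axis) for each tested gene of the function lists with 9 or more tested members (rows, number tested in parentheses), with called genes in red (higher) or blue (lower), other genes in grey and a bar at each list's median. Medians lie close to 0 in most lists, with the cytochrome P450 list at -0.26, the specialised enzyme list at -0.16 and the glutathione S-transferases at 0.39, and the calls are scattered over most lists.

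In each called gene named below, the 3 iae1 arrays lay wholly above or wholly below the 3 B1798 arrays, which held for 24.5% of all tested genes. When each of the 9 arrays was left out in turn, 62 of the 118 named and called genes and probe sets kept their call in every fit. Where a call was lost, the highest adjusted p and the array left out are given, and many such calls were lost in other fits too.

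Of the genes that handle stored oil and carbon, ICL rose while its list otherwise stood still. ICL encodes isocitrate lyase, a defining enzyme of the glyoxylate cycle. It gave 69.0, 67.1 and 55.6 in iae1 against 10.9, 25.6 and 6.7 in B1798 (log2 fold change 1.44 ± 0.18, adjusted p = 9.98e-05). The B1798 values 10.9 and 6.7 were under the filter level of 23.2 to 26.0, and the log2 fold change ran from 0.71 to 2.01 over the settings tried. In iae2 ICL was at 39.3 ± 4.91, below iae1 with an adjusted p of 0.0481. The other 3 tested members were not called: the oil lipase gene SDP1 was at -0.21, the beta-oxidation gene AIM1 at -0.06 and the peroxisome gene PEX4 at 0.04. None of the 18 tested genes of glycolysis, fermentation and the citric acid cycle and none of the 7 of sugar and starch was called. The isocitrate dehydrogenase gene ICDH came nearest among the former (-0.34, adjusted p = 0.0701) and the starch kinase gene PWD among the latter (-0.27, adjusted p = 0.11).

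In the lists of nuclear genes for photosynthesis 2 of 26 genes were called (7.69%, against 6.66% of all genes). None of 13 photosystem and antenna genes was called, with NdhL, a subunit of the plastid NDH complex, nearest at 0.29 (adjusted p = 0.079). LHCB4.2 was at -0.25 and RCA at 0.12, neither past the threshold. Of 3 Calvin cycle and photorespiration genes SBPASE, which encodes sedoheptulose-bisphosphatase, rose from 756 ± 40.3 to 938 ± 43.1 (log2 fold change 0.31, adjusted p = 0.044). Of 10 genes for tetrapyrroles, carotenoids and isoprenoids, hemb2, named for a porphobilinogen synthase of the tetrapyrrole pathway, gave 45.1, 45.4 and 46.1 in iae1 against 24.6, 25.2 and 26.2 in B1798 (0.57 ± 0.12, adjusted p = 0.00662). It was at 25.5 ± 4.03 in iae2, and iae1 was higher there too (adjusted p = 0.00251). The call of SBPASE was lost in 7 of the 9 fits that left out an array, with an adjusted p of 0.142 without iae1 replicate 1.

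Among transcripts of the plastid genome, 9 of 65 tested genes rose (13.8%, against 3.49% of all genes) and psbE alone fell (1.54%, against 3.17%). The median over the 65 was 0.05. The oligo-dT primer used for labelling favours RNA with poly(A) tails, which plastid transcripts mostly lack, so these signals are an indirect readout. The 25S rRNA signal given above was also higher in iae1. Its part in the result was not tested. Of the 15 plastid-encoded ribosomal protein genes, a group set apart after values were seen, 6 rose and none fell: rps16, rps3, rps19, rpl16, rpl22 and rpl33. Their median was 0.30, and rpl14 had a larger value of 0.70 without passing the test. The rpl33 signals were 1329.2, 1134.9 and 1436.3 in iae1 against 1033.6, 994.9 and 1055.6 in B1798. For rpl16 they were 286.8, 267.9 and 258.9 against 208.4, 177.4 and 208.8.

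Of the 3 plastid RNA polymerase genes, rpoC2 rose from 80.7 ± 4.61 to 123 ± 19.1 (log2 fold change 0.52 ± 0.11, adjusted p = 0.00835), while rpoA and rpoC1 were both at 0.02. Of 42 genes for photosynthetic complexes, psaC, a photosystem I iron-sulfur subunit, rose from 162 ± 31.2 to 256 ± 28.3 (0.63 ± 0.13, adjusted p = 0.00828), and ycf3, a photosystem I assembly factor, rose by 0.49 (adjusted p = 0.0205). The cytochrome b559 gene psbE fell by 0.43 (adjusted p = 0.0298). Against iae2, the iae1 signals of rpoC2, psaC, rpl16, rps3 and rps19 were higher by the test (adjusted p = 1.12e-05, 0.00274, 0.0243, 0.00549 and 0.000419), and those of ycf3, rps16, rpl33 and rpl22 were not (adjusted p = 0.0593, 0.195, 0.65 and 0.0626). The background for a gene called higher in that comparison is 9.49%, and 17 of the 65 plastid genes were.

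Of these 10 plastid calls, psaC alone kept its call whichever array was left out. With the GAPDH ratio as a covariate the calls of rpoC2 and rpl16 alone were kept, and that of psaC was lost. The adjusted p reached 0.0501 for rpoC2 without iae1 replicate 2, 0.0642 for rpl16 without B1798 replicate 2 and 0.101 for ycf3 without the same array. It reached 0.112 for psbE and 0.0974 for rps19 without iae1 replicate 2, and 0.114 for rps16 without iae1 replicate 1. For rpl33 and rpl22 it reached 0.14 and 0.149 without iae1 replicate 3, and for rps3 0.163 without B1798 replicate 3. The call of rpl22 was lost in 8 of the 9 fits that left out an array. None of 8 mitochondrion-encoded genes was called, nad4 coming nearest at 0.23 (adjusted p = 0.113). Neither was any of 11 nuclear genes for organelle RNA processing, plastid transcription and translation, where OTP43 was at 0.34 (adjusted p = 0.145), nor any of 7 respiration genes, where NDB1 was at 0.31 (adjusted p = 0.144).

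**Figure D4:**
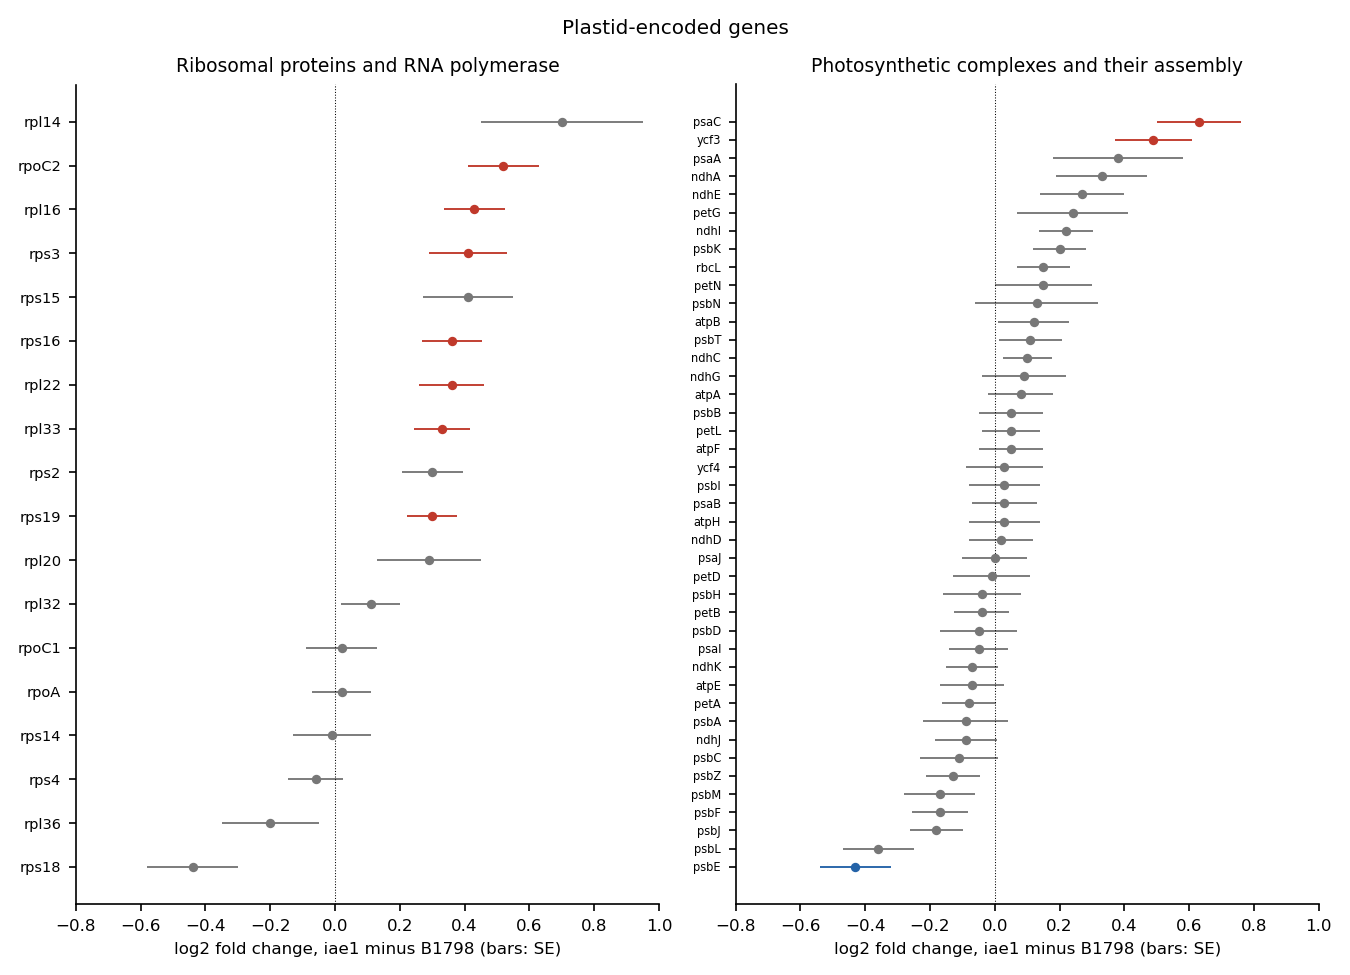
Log2 fold change of iae1 against B1798 (x axis, bars of 1 SE) for the tested plastid-encoded genes (rows) of ribosomal proteins and RNA polymerase on the left and of photosynthetic complexes on the right, with called genes in red (higher) or blue (lower). Of the 15 ribosomal protein genes 11 lie above 0 and 6 of those are called, while the 42 genes for photosynthetic complexes lie around a median of 0.03.

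Small defence peptides moved in both directions. Defensins and thionins are secreted antimicrobial peptides, and RALF peptides are signals read by receptor kinases. Of 15 tested genes 3 rose, all defensins, and 2 fell, where 3.49% and 3.17% of all genes did. PDF1.2, a standard marker of jasmonate and ethylene signalling, gave 72.9, 66.4 and 73.2 in iae1 against 25.8, 27.2 and 32.0 in B1798 (log2 fold change 0.97 ± 0.096, adjusted p = 9.21e-06). It was higher still in iae2, at 213 ± 13.6, and iae1 was below iae2 by 1.40 (adjusted p = 5.88e-08). LCR67, which encodes the defensin PDF1.1, gave 29.3, 30.4 and 26.8 against 14.7, 9.3 and 2.6 in B1798 (0.88 ± 0.17, adjusted p = 0.005), low signals around the filter level. It passed the filter through its iae1 arrays alone, so its direction was fixed by that filter. The 4 other defensin genes were not called and ranged from 0.04 for LCR68 to 0.42 for PDF2.5.

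The thionin gene THI2.1, also known to respond to jasmonate, fell from 384 ± 14.1 to 316 ± 13.9 (-0.27 ± 0.077, adjusted p = 0.0441), while PDF1.2 and PDF1.2b rose. RALFL18 fell from 54.1 ± 3.31 to 32.4 ± 6.76 (-0.54 ± 0.13, adjusted p = 0.0209), and the other 6 RALF genes lay between -0.24 and 0.25 without a call. Of the remaining jasmonate-list genes the lectin gene JAL22 fell, with 1389.2, 1406.7 and 1348.3 in iae1 against 1801.9, 1972.0 and 1987.1 in B1798 (-0.47 ± 0.085, adjusted p = 0.00284). The transcription factor genes MYC3 and MYC4 and the synthesis gene OPCL1 were not called. The chitinase gene CHI gave 63.6, 59.8 and 58.5 against 105.6, 114.2 and 115.2 (-0.74 ± 0.13, adjusted p = 0.0027), while the osmotin gene OSM34 was at 0.40 (adjusted p = 0.0725). JAL22 and CHI did not differ from iae2 by the test. The calls of THI2.1 and RALFL18 were lost in 7 and 3 of the 9 fits that left out an array. The highest adjusted p values were 0.15 without iae1 replicate 3 and 0.0968 without iae1 replicate 2.

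Specialised metabolism held the most called list genes, 19.5% of 87 tested against 6.66% of all genes. Of the calls 6 were rises and 11 falls, and 6 of the falls were serine carboxypeptidase-like genes, given below. Beta-glucosidases release active compounds from stored glucosides. Of 14 tested, BGLU28 fell as above and BGLU44 gave 451.8, 445.6 and 457.4 in iae1 against 666.3, 681.9 and 653.1 in B1798 (-0.55 ± 0.069, adjusted p = 0.000112). The other 12 ranged from -0.35 to 0.33. In the glucosinolate list BCAT4, the aminotransferase that opens methionine chain elongation, rose from 391 ± 47.2 to 513 ± 31.9 (0.38, adjusted p = 0.0208), and AOP1 fell from 149 ± 4.29 to 115 ± 5.48 (-0.33, adjusted p = 0.0187). Their calls were lost without B1798 replicate 3 (adjusted p = 0.0875) and without iae1 replicate 2 (adjusted p = 0.0813). The other 5 glucosinolate genes, among them the transporters GTR1 and GTR2, were not called.

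UDP-glycosyltransferases attach sugars to small molecules. Of 27 tested, 1 rose and 1 fell, where 3.49% and 3.17% of all genes did. UGT72E2, which glucosylates lignin precursors, rose from 70.1 ± 10.4 to 96.7 ± 8.05 (0.39, adjusted p = 0.0355), and UGT73B5 fell from 41.3 ± 3.86 to 23.7 ± 4.18 (-0.53, adjusted p = 0.0164). Without B1798 replicate 2 the adjusted p of the former was 0.161, and without iae1 replicate 1 that of the latter was 0.0676. The 4 flavonoid genes held no call, and UGT78D1, a flavonol rhamnosyltransferase gene, came nearest at -0.38 (adjusted p = 0.0672). Of the cytochrome P450 genes that the name lists reached, all 8 tested members of the CYP71B group lay below 0, from -0.14 to -0.32, and 1 of them, CYP71B23, passed the test (from 216 ± 4.44 to 169 ± 4.69, adjusted p = 0.0322). That call was lost without iae1 replicate 2 (adjusted p = 0.105). The other tested P450 gene, CYP84A4, was at 0.18, so 1 of 9 fell, where 3.17% of all genes did.

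Tau class glutathione S-transferases join glutathione to reactive compounds. This list, and those of the carboxypeptidase-like and trichome birefringence-like genes below, were added after values were seen, so their counts are a description. Of 8 tested, 3 rose, where 3.49% of all genes did, and none fell. GSTU26 gave 121.2, 170.3 and 156.0 in iae1 against 75.0, 83.6 and 76.4 in B1798 (0.80 ± 0.12, adjusted p = 0.000469), and GSTU22 gave 36.8, 35.9 and 35.5 against 12.6, 17.8 and 19.3 (0.68 ± 0.13, adjusted p = 0.0037). The direction of GSTU22 was fixed by the filter on low signal, which it passed through its iae1 arrays alone. GSTU23 rose from 36.0 ± 5.46 to 51.8 ± 1.21 (0.39, adjusted p = 0.0464), a call lost in 8 of the 9 fits that left out an array, with an adjusted p of 0.183 without B1798 replicate 2. GSTU20 and GSTU28 were both at 0.41 (adjusted p = 0.0753 and 0.0747) and GSTU27 at -0.36 (adjusted p = 0.0747), so members of the class differed in direction of their values. Against iae2 only GSTU23 was higher in iae1 (adjusted p = 0.0181), while GSTU16, at 141 ± 17.7 in iae1 and 154 ± 11.4 in B1798, was at 319 ± 7.45 in iae2.

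The serine carboxypeptidase-like genes encode proteins of the peptidase fold, some of which act in plants as acyltransferases. Of 14 tested, 6 fell, where 3.17% of all genes did, and none rose, with a median of -0.27. SCPL45 gave 18.9, 11.9 and 10.6 in iae1 against 34.9, 26.7 and 43.4 in B1798 (-0.77 ± 0.15, adjusted p = 0.00436). It was at 42.5 ± 3.88 in iae2, above iae1 with an adjusted p of 0.000217. SCPL45 passed the filter on low signal through its B1798 arrays alone, so its direction against B1798 was fixed by that filter. The brighter scpl25 fell from 344 ± 28.8 to 257 ± 33.4 (-0.40, adjusted p = 0.0133) and scpl35 from 254 ± 18.7 to 200 ± 17.1 (-0.32, adjusted p = 0.0269). The other falls were those of scpl48 (-0.37), scpl50 (-0.35) and scpl29 (-0.30). Against iae2, where 9.05% of all genes were called lower in iae1, this held by the test for SCPL45, scpl25, scpl35 and scpl50 of these 6 and not for scpl48 or scpl29. SCPL45 kept its call whichever array was left out. The adjusted p reached 0.0707 for scpl25, 0.106 for scpl48 and 0.144 for scpl50 without iae1 replicate 3, and 0.125 for scpl35 and 0.189 for scpl29 without B1798 replicate 2. The call of scpl50 was lost in 8 of the 9 fits that left out an array.

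**Figure D5:**
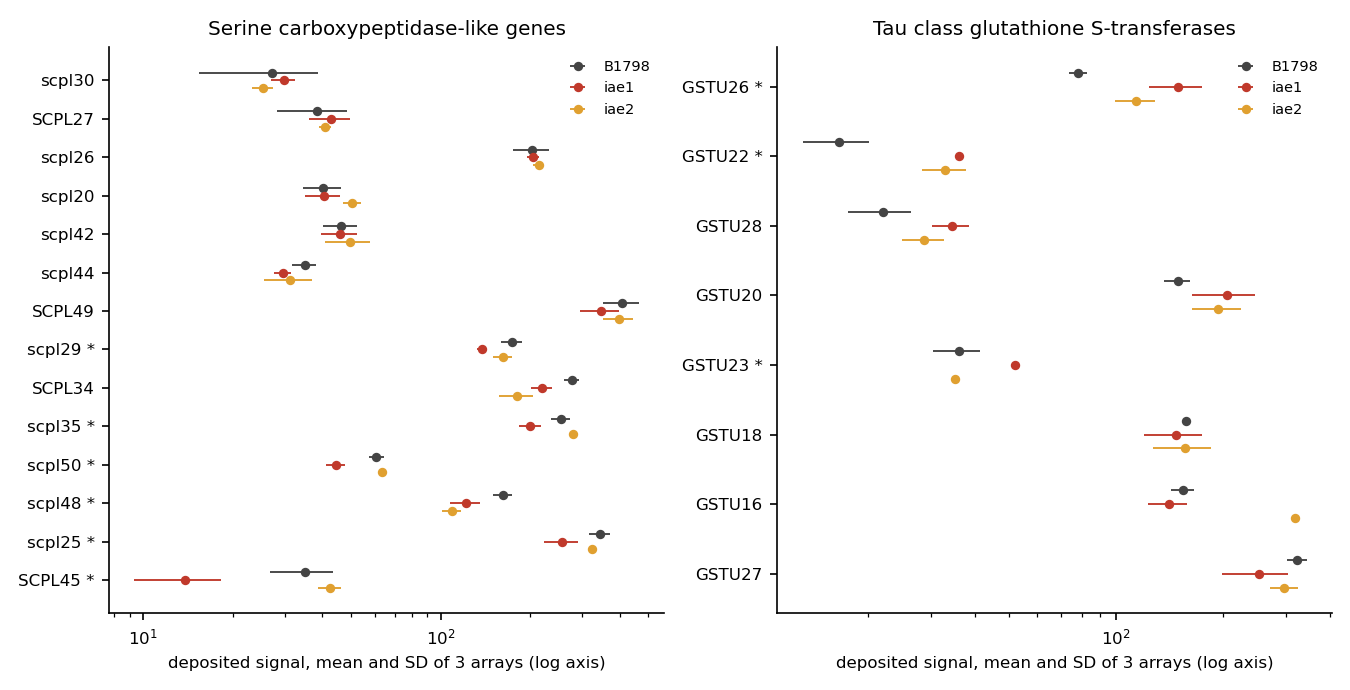
Mean signal (x axis, log scale) with bars of 1 SD over 3 arrays for the 14 tested serine carboxypeptidase-like genes and the 8 tested tau class glutathione S-transferases (rows), with B1798 in dark grey, iae1 in red and iae2 in orange, and an asterisk at genes called between iae1 and B1798. The 6 marked carboxypeptidase-like genes have iae1 below B1798 and the 3 marked transferases have iae1 above it, while iae2 takes different places from gene to gene.

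Of 31 antioxidant and redox genes 4 fell and 1 rose, where 3.17% and 3.49% of all genes did, with a median of -0.04. Methionine sulfoxide reductases repair oxidised methionine, and 2 B-type genes moved in opposite directions. MSRB5 gave 645.0, 912.9 and 824.6 in iae1 against 1266.2, 1224.6 and 1323.5 in B1798 (-0.68 ± 0.11, adjusted p = 0.00141). MSRB9 gave 886.1, 891.2 and 802.9 against 605.2, 654.7 and 708.9 (0.38 ± 0.078, adjusted p = 0.00679). The glutathione reductase gene GR1 fell from 314 ± 28.6 to 235 ± 11.4 (-0.39, adjusted p = 0.0073). Smaller falls were those of ATMDAR2, a monodehydroascorbate reductase gene (-0.29, adjusted p = 0.033), and of NQR at AT3G27890, an NADPH:quinone oxidoreductase gene (-0.27, adjusted p = 0.0282). Their adjusted p values rose to 0.126 without iae1 replicate 3 and to 0.0896 without iae1 replicate 1.

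Class III peroxidases act in the cell wall and apoplast. Of 6 tested, 2 fell and 1 rose, where 3.17% and 3.49% of all genes did. PRX52 fell from 109 ± 2.34 to 74.8 ± 5.62 (-0.46 ± 0.095, adjusted p = 0.00738), and PRXR1, among the brightest genes of the comparison, fell from 4147 ± 372 to 3040 ± 155 (-0.44 ± 0.086, adjusted p = 0.00486). The locus AT5G17820, which the list holds by its identifier and which also served as a root marker, rose from 50.7 ± 4.78 to 78.9 ± 9.74 (0.51 ± 0.12, adjusted p = 0.0199). That call was lost without iae1 replicate 2 (adjusted p = 0.0892), and the other measured root markers were not called, PYK10 at -0.08 and EXPA7 at 0.17. PRX52 was far lower in iae2, at 27.1 ± 0.379, so iae1 lay between the lines and above iae2 (adjusted p = 9.5e-07).

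Cold and drought genes were split. Of 13 tested, 3 fell and 2 rose, where 3.17% and 3.49% of all genes did. M10, a late embryogenesis abundant gene, gave 15.7, 16.3 and 17.9 in iae1 against 67.9, 70.5 and 45.0 in B1798 (-1.22 ± 0.18, adjusted p = 0.000511) and was at 11.4 ± 6.77 in iae2. It passed the filter on low signal through its B1798 arrays alone, so its direction was fixed by that filter. COR15B, which encodes a cold-regulated plastid protein, fell from 68.5 ± 6.85 to 46.5 ± 7.73 (-0.44, adjusted p = 0.034), and RD2 fell from 971 ± 15.6 to 790 ± 18.7 (-0.29, adjusted p = 0.0134). The zinc finger gene STZ, a stress-induced repressor, rose from 245 ± 22.7 to 338 ± 30.1 (0.44, adjusted p = 0.00601), and the drought-induced gene DI21 rose from 217 ± 15.3 to 302 ± 16.2 (0.45, adjusted p = 0.00245). The dehydrin genes COR47 and LTI30 were at -0.18 and -0.04 without a call. STZ was higher in iae1 than in iae2 (adjusted p = 0.000205) and DI21 lower (adjusted p = 0.0228). The calls of COR15B and RD2 were lost without iae1 replicate 1 (adjusted p = 0.135) and iae1 replicate 2 (adjusted p = 0.0569).

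Of 4 tested genes in the low-oxygen list, 2 loci held by identifier rose, where 3.49% of all genes did. AT5G66985 gave 121.1, 98.5 and 89.7 in iae1 against 32.2, 19.5 and 26.3 in B1798 (1.51 ± 0.13, adjusted p = 2.44e-06), and AT1G33055 gave 389.6, 421.9 and 394.4 against 269.6, 265.1 and 268.7 (0.56 ± 0.075, adjusted p = 0.000219). Both were higher than in iae2 as well (adjusted p = 0.00219 and 2.02e-08). The pyruvate decarboxylase gene PDC2 was at -0.16 and AT4G27450 at 0.08. Of 16 heat shock and co-chaperone genes 1 fell, where 3.17% of all genes did. This was the lipocalin gene TIL, lower by 0.25 (adjusted p = 0.0429), which became 0.164 without B1798 replicate 2.

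In the lists of nutrients and transport 4 of 38 genes were called (10.5%, against 6.66% of all genes). Apart from AT3G13610, the call among 11 genes of iron, zinc and copper homeostasis was that of ILR3, a bHLH factor that takes part in the iron deficiency response, which fell from 569 ± 113 to 411 ± 70.5 (-0.45, adjusted p = 0.0414). Its partners bHLH34, bHLH104 and bHLH115 and the repressor gene PYE lay between -0.13 and 0.08. LPR2, a ferroxidase gene of the root response to low phosphate, fell from 315 ± 5.27 to 254 ± 19.3 (-0.30, adjusted p = 0.0314). The sucrose exporter gene SWEET11 fell from 592 ± 81.8 to 444 ± 29.5 (-0.40, adjusted p = 0.0189) and was the call among 18 nutrient and sugar transporter genes. None of 8 ABC, MATE and ion transporter genes was called, with CHX20 nearest at -0.25 (adjusted p = 0.256). Without iae1 replicate 3 the adjusted p was 0.172 for ILR3 and 0.118 for LPR2, and without B1798 replicate 2 it was 0.0908 for SWEET11.

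In the cell wall lists 7 genes rose and 4 fell of 63 tested, where 3.49% and 3.17% of all genes did. Trichome birefringence-like proteins add acetyl groups to wall polysaccharides. Of 14 tested in a list added after values were seen, 3 rose and none fell: TBL37 gave 556.8, 621.4 and 612.6 in iae1 against 405.8, 426.9 and 483.9 in B1798 (0.43 ± 0.08, adjusted p = 0.0034), TBL39 rose by 0.52 (adjusted p = 0.00874) and TBL41 by 0.41 (adjusted p = 0.049). CSLC04, a synthase of the xyloglucan backbone, rose by 0.32 (adjusted p = 0.0372), and the xyloglucan endotransglucosylase genes XTH19 and XTH32 by 0.39 and 0.37 (adjusted p = 0.0289 and 0.0332). SKU5, a glycoprotein gene of directional root growth, rose from 269 ± 45.4 to 410 ± 54.7 (0.59 ± 0.13, adjusted p = 0.0102).

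The wall genes that fell were ATPMEPCRD, EXLB1, EXPA8 and ECS1. ATPMEPCRD, named as a pectin methylesterase, gave 65.3, 52.4 and 60.2 in iae1 against 103.4, 118.1 and 106.4 in B1798 (-0.74 ± 0.11, adjusted p = 0.000769). Expansins loosen walls, and EXLB1 and EXPA8 fell by 0.49 and 0.27 (adjusted p = 0.0196 and 0.034). ECS1, a wall protein gene first found through its link to resistance against Xanthomonas, fell from 181 ± 19.3 to 117 ± 16.9 (-0.57 ± 0.11, adjusted p = 0.00629), whereas it was at 1731 ± 235 in iae2. TBL37, TBL39, SKU5, ATPMEPCRD and ECS1 kept their calls whichever array was left out, TBL39 and SKU5 losing theirs with the GAPDH ratio as a covariate. The call of TBL41 was lost in each of the 9 fits that left out an array. Without iae1 replicate 2 the adjusted p was 0.177 for TBL41, 0.119 for XTH19, 0.133 for XTH32 and 0.127 for EXPA8. It was 0.144 for CSLC04 without iae1 replicate 3 and 0.0859 for EXLB1 without iae1 replicate 1.

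The share of genes called was 9.68% in the hormone lists, 5.26% in those of transcription factors and 6.06% in those of signalling, against 6.66% of all genes. Of 14 auxin genes WAG2, a kinase that acts on auxin transporters, fell from 63.97 ± 13.7 to 37.3 ± 8.16 (-0.58, adjusted p = 0.0198). Of 5 ethylene genes RTH, a homologue of a regulator of the receptor ETR1, rose by 0.38 (adjusted p = 0.0432), and EIN3 was at -0.03. EXO, a brassinosteroid-responsive growth gene, rose from 573 ± 17.8 to 773 ± 93.5 (0.42 ± 0.086, adjusted p = 0.0073) and was higher than in iae2 (adjusted p = 0.00152). Among 57 transcription factor genes the calls were STZ and ILR3, given above, and AT1G06070, which encodes bZIP69 and fell by 0.38 (adjusted p = 0.0398). No WRKY gene (6 tested) or AP2/ERF gene (3 tested) was called. WRKY53 came nearest at -0.37 (adjusted p = 0.0605), and LEP was at 0.28 (adjusted p = 0.229).

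Of 15 calcium sensor genes CML38 rose, with 43.3, 47.5 and 50.1 in iae1 against 33.7, 24.2 and 23.3 in B1798 (0.55 ± 0.15, adjusted p = 0.0295). Of 7 genes for MAP, calcium-dependent and SnRK kinases and phosphatases AKINBETA1, a subunit of the energy-sensing SnRK1 kinase, rose from 606 ± 39.7 to 759 ± 9.69 (0.32, adjusted p = 0.0129). Both were higher than in iae2 (adjusted p = 0.0069 and 0.000506). No receptor-like kinase gene (7 tested) or clock and light gene (4 tested) was called, with FER at 0.25 (adjusted p = 0.119) and TIC at -0.13 (adjusted p = 0.573). The adjusted p was 0.0925 for WAG2, 0.18 for RTH and 0.156 for AT1G06070 without iae1 replicate 3, 0.103 for CML38 without B1798 replicate 2 and 0.0529 for AKINBETA1 without iae1 replicate 2. EXO kept its call throughout.

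Genes of chromatin, DNA replication and repair and RNA are given because the name iae refers to transposon excision. With protein turnover, the cytoskeleton and vesicle traffic, their lists held 156 tested genes, of which 4 rose and 3 fell. That is 4.49%, under the 6.66% of all genes, so the calls below describe single genes and not these functions. None of 6 DNA repair and recombination genes was called, with TOP3A at 0.27 (adjusted p = 0.41). Of 20 genes for DNA methylation, chromatin and small RNAs NRPD7, a subunit gene of the RNA polymerases that act in silencing, rose from 20.3 ± 1.02 to 36.1 ± 5.76 (0.52 ± 0.12, adjusted p = 0.0164). Its close relative NRPE7 was at 0.40 (adjusted p = 0.28), and the demethylase gene DME at -0.06. Of 15 genes for cell cycle, replication and histones HIS1-3, the drought-inducible linker histone, gave 316.1, 349.6 and 363.8 in iae1 against 538.1, 550.3 and 543.0 in B1798 (-0.64 ± 0.073, adjusted p = 4.08e-05). It was at 494 ± 13.8 in iae2, and iae1 was lower there too (adjusted p = 0.000137). Of 25 splicing, RNA processing and translation factor genes ATU2AF65A, the large subunit of the factor that reads the 3' splice site, rose from 89.2 ± 10.5 to 141 ± 11.2 (0.58 ± 0.097, adjusted p = 0.00147), and iae1 was above iae2 (adjusted p = 0.00446). The small subunit genes ATU2AF35A and U2AF35B were at 0.08 and -0.01. Outside these lists, the replication genes ATIM and PSF2, chosen after their values were seen, rose by 0.81 and 0.55 (adjusted p = 0.000513 and 0.0154), and PSF2 lost its call without iae1 replicate 2 (adjusted p = 0.0761). The call of NRPD7 was lost without iae1 replicate 1 (adjusted p = 0.074). NRPD7 passed the filter on low signal through its iae1 arrays alone, so its direction was fixed by that filter.

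Protein turnover held 3 calls among 49 genes, and the cytoskeleton and vesicle traffic held 1 among 42, where 6.66% of all genes were called. GAMMA-VPE, a vacuolar processing protease of stressed and ageing tissue, gave 542.3, 613.8 and 502.9 in iae1 against 805.4, 894.2 and 827.7 in B1798 (-0.60 ± 0.081, adjusted p = 0.000238) and was at 733 ± 10.96 in iae2, above iae1 (adjusted p = 0.00232). XERICO, a RING protein gene linked to abscisic acid, fell from 229 ± 12.3 to 181 ± 4.69 (-0.31, adjusted p = 0.0218). ATL8, another RING protein gene, rose from 111 ± 4.96 to 157 ± 14.8 (0.44, adjusted p = 0.00808). VPS60.1, a subunit gene of the membrane-sorting ESCRT machinery, rose by 0.35 (adjusted p = 0.0427). The adjusted p was 0.0802 for XERICO without iae1 replicate 2 and 0.158 for VPS60.1 without B1798 replicate 2.

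In the direct test of iae1 against iae2, 2731 of the same 13893 probe sets were called (19.7%), 1363 higher in iae1 (9.81%) and 1368 lower (9.85%). For genes the share was 18.5%. This test shares the iae1 arrays with the main comparison, and its filter, set on the arrays of iae1 and B1798, leaves out genes on in iae2 alone. Of the 24 leading genes, iae1 was higher than iae2 in 11 of the 12 rises, PDF1.2b being the exception. Among the 12 leading falls iae1 was lower than iae2 in BGLU28, AT4G17470, AT1G64360, AT1G16020, AT1G75280, AT1G19960 and AT4G22490, and higher in AT4G16260. The test did not separate iae1 from iae2 in AT5G03350, AT5G55450, M10 and AT1G47570.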

How the data were processed

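Each array's deposited table held a linear intensity signal for 22810 ATH1 probe sets. The authors had scaled them to a trimmed mean of 100, as the values show, and the summarising algorithm is not given in the sources used here. Per the labels, cRNA was made from total RNA with an oligo-dT primer. The 64 AFFX probe sets were left out. The deposited signals were taken as log2(value + 16), which understates changes of dim probe sets, and all 9 arrays were fitted with a mean per line in limma 3.58.1 (R 4.3.3) with an intensity trend. Every adjusted p is from these two-sided fits with Benjamini-Hochberg adjustment over all 13893 tested probe sets. Single values per array were compared with exact permutation tests. The number of arrays limits the precision.

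The probe annotation names a single gene for 13513 probe sets, several for 503, and the rest are unnamed here. Loci and symbols are those of a gene table of assembly TAIR10.1, and no coordinates are given because the sources name no build. The brightest probe set stood for a gene. Genes were named as the 12 largest rises and 12 largest falls among called genes without overlap, up to 4 called members per list and direction, the nearest member of a list of 3 or more tested genes without a call, and the measured markers. The members and lists were chosen with earlier results of these data known. The lists of serine carboxypeptidase-like, tau class transferase, trichome birefringence-like, plastid subgroup, iron-sulfur and purine genes were added after values were seen, and 40 names meaning another protein were left out of lists by name. Same-numbered arrays did not deviate together (correlations from -0.15 to 0.147), so numbers were not taken as pairs. In data simulated for the comparison of iae1 with B1798, over 13893 probe sets, 55 of 100 changes of log2 0.5 and 98 of 100 of log2 1 were recovered, with 4 false calls. Alternatives changed the pseudocount, floor, normalization, filter, lines in the fit, variance trend, array weights, threshold, a replicate block and a GAPDH ratio covariate, and left out each array. Figures used Python 3.11.15 and matplotlib 3.10.9.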

Additional observations from a re-analysis of the deposited data

Results flagged for a closer look

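For 13 named genes iae1 and iae2 lay on opposite sides of B1798, each called against it, and the test of iae1 against iae2 was passed as well. They come from the 118 named and called genes and probe sets. The share over all tested genes is not given here, so 13 does not tell how common such orders are. Both differences from B1798 use the same B1798 arrays, so the opposite sides are given as values.

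Higher than B1798 in iae1 and lower in iae2 were BCAT4 (iae1 minus iae2 1.06 on the log2 scale), the plastid gene rpoC2 (0.98), MSRB9 (0.87), AT1G33055 (1.20), TBL37 (0.70) and KELP (1.00). KELP, a transcriptional coactivator gene chosen after its values were seen, was at 296 ± 43.0 (SD, n = 3) in iae1, 193 ± 11.3 in B1798 and 140 ± 15.8 in iae2. AT1G33055 was at 402 ± 17.4, 268 ± 2.38 and 166 ± 10.3 in that order. MSRB9 was at 860 ± 49.6, 656 ± 51.9 and 464 ± 16.8.

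Lower than B1798 in iae1 and higher in iae2 were AT1G64360 (-1.57), AT4G22490 (-1.23), BGLU44 (-0.83), MSRB5 (-1.19), COR15B (-1.20), EXLB1 (-0.87) and ECS1 (-3.71). MSRB5 was at 794 ± 137 in iae1, 1271 ± 49.7 in B1798 and 1825 ± 231 in iae2, so the 2 methionine sulfoxide reductase genes had opposite orders of the lines. COR15B was at 46.5 ± 7.73, 68.5 ± 6.85 and 128 ± 17.7. The call against B1798 was lost for BCAT4 without B1798 replicate 3 (adjusted p = 0.0875), for rpoC2 without iae1 replicate 2 (0.0501), for COR15B without iae1 replicate 1 (0.135) and for EXLB1 without iae1 replicate 1 (0.0859).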

How the results depend on the processing

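With the replicate number as a block, 996 probe sets were called between iae1 and B1798 against 1038 without it, 63 at 2-fold or more and 2658 against iae2, and 927 of the 1038 remained called in the same direction. Left out array by array, the calls ranged from 616 to 1027, those at 2-fold or more from 62 to 70 and those against iae2 from 1923 to 2822. When the fit also held the GAPDH ratio 669 probe sets were called (584 of the 1038) and 1420 against iae2. At an adjusted p below 0.01 the counts were 448 and 1507. Calls at 2-fold or more were 105 with a pseudocount of 4, 17 with 64, 118 with values under 16 set to 16 and 40 with the filter level reached in all 6 arrays. The other settings kept all 3 counts within 1.5 times. No named gene reversed, and 59 of 118 stayed called under every alternative that tested them, the strictest filter having left some out. The causes of these shifts were not tested. Calls were less frequent among dim genes: of 4 equal groups ranked by signal, 12.0% of the brightest were called and 2.94% of the dimmest.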

Other observations

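Beyond the groups of the report, several small groups held calls. They were chosen after their values were seen, so their counts are a description. Of 4 tested genes for iron-sulfur cluster assembly 2 fell, where 3.17% of all genes did. SUFE2, which activates a cysteine desulfurase, gave 144.0, 134.9 and 145.0 in iae1 against 188.1, 203.9 and 222.7 in B1798 (log2 fold change -0.49 ± 0.095 SE, limma adjusted p = 0.00507). The scaffold gene ISU1 fell from 636 ± 69.5 (SD, n = 3) to 473 ± 80.3 (-0.42, adjusted p = 0.0304), while CPNIFS and HCF101 were at 0.17 and -0.10. Of 4 tested genes of purine synthesis and breakdown, allantoinase (ALN) fell from 305 ± 27.5 to 207 ± 9.74 (-0.52, adjusted p = 0.000826) and the AMP deaminase gene FAC1 from 140 ± 13.6 to 98.5 ± 12.7 (-0.44, adjusted p = 0.0147). The allantoate amidohydrolase gene AAH, which acts next in that breakdown, was at 0.43 (adjusted p = 0.0625). The calls of ISU1 and FAC1 were lost without iae1 replicate 3 (adjusted p = 0.142) and B1798 replicate 2 (adjusted p = 0.075).

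Other named genes that rose were ATIM, a TIMELESS homologue of the replication fork, from 47.8 ± 7.73 to 95.4 ± 1.76 (0.81, adjusted p = 0.000513), BAT1, a brassinosteroid-related acyltransferase gene, from 29.4 ± 0.557 to 60.2 ± 8.98 (0.74, adjusted p = 0.000944), and the tropinone reductase gene TRI from 24.1 ± 1.45 to 48.3 ± 2.55 (0.68, adjusted p = 0.00132). All 3 were higher than in iae2 too (adjusted p = 0.00212, 0.00236 and 0.000217). LSH9 rose by 0.49 (adjusted p = 0.0138), which became 0.0666 without iae1 replicate 1. YLS5, a DJ-1 family gene, fell by 0.53 (adjusted p = 0.00461).

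Large changes also occurred in probe sets without a gene name here. An unnamed probe set gave 88.9, 89.3 and 79.5 in iae1 against 4.3, 3.0 and 1.3 in B1798 (2.43 ± 0.13, adjusted p = 1.14e-08) and 8.80 ± 0.173 in iae2. It passed the filter on low signal through its iae1 arrays alone, so its direction was fixed by that filter. Another gave 91.4, 91.3 and 103.2 in iae1 against 394.7, 447.0 and 350.3 in B1798 (-1.89 ± 0.094, adjusted p = 7.01e-09) and 344.5, 314.2 and 363.8 in iae2. The filter level was reached on all 3 iae1 arrays and none of the B1798 arrays by 76 tested probe sets, and the other way round by 60, a description of signals near that level.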
